A study of Mus musculus with 36 samples.

Results

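The clustered protocadherin genes are the 58 RefSeq genes on chromosome 18 of GRCm38 whose symbols start with Pcdha, Pcdhb or Pcdhg, out of 49943 annotated genes on chromosomes 1 to 19, X and Y. They were chosen by name and position, not by their DNA damage. The alpha cluster holds 14 genes, the beta cluster 22 and the gamma cluster 22, of which 21 are protein-coding and Pcdhgb8 is a transcribed pseudogene. Overlapping gene spans within a cluster were merged, so that each lesion position counted once per cluster.

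The libraries came from C57BL/6J males aged 24 months. Brain, heart, liver, bone marrow, sperm and mononuclear blood cells (PBMCs) were each represented by 2 samples, and every sample was profiled for single-strand breaks (SSBs) and for abasic (AP) sites, which gave 24 libraries. Per the labels, 2 mice supplied the tissues, brain, heart and liver were ground as whole organs, red cells were removed from bone marrow, sperm were the motile cells of the epididymal tail, and sperm DNA was extracted with a different kit than the DNA of the other tissues. The labels name no transgene, deletion or treatment, RNA profiles and other ages are not analysed here, and tissue identity could not be checked against marker genes since the libraries hold lesions and not transcripts.

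Clustered protocadherins are cell-adhesion proteins of the cadherin superfamily, best known for giving individual neurons a surface identity with which their branches recognise and avoid each other. Every alpha and gamma gene begins with a large variable exon of its own, which encodes the extracellular cadherin repeats and has its own promoter, and is spliced to constant exons shared at the 3′ end of the cluster. The beta genes carry their whole coding sequence in an exon without a shared constant part. CTCF and cohesin bring the chosen promoters to distant enhancers. An SSB is a nick in a DNA strand, and an AP site is a sugar that has lost its base. Both arise spontaneously and as intermediates of base excision repair.

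On GRCm38 the alpha cluster extends on chromosome 18 from 36930285 to 37188897, a continuous stretch of 258.613 kb. The longest gene, Pcdha1 (257.373 kb), spans nearly all of it, and the shortest, Pcdhac2, spans 43.986 kb. The beta cluster lies from 37264998 to 37521419, and its 22 genes cover 75.637 kb of these 256.422 kb without overlapping, from Pcdhb8 (2.34 kb) to Pcdhb16 (5.271 kb). The gamma cluster extends from 37661775 to 37841873 (180.099 kb), from Pcdhga1 (180.096 kb) to Pcdhgc5 (22.328 kb). Alpha and gamma genes differ in their starts but share their ends, so the genes of either cluster hold many of the same positions and are not independent of each other. Some other RefSeq gene models overlap these spans and share their positions.

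The SSB libraries held 225011 to 1041983 positions and the AP libraries 460719 to 963258. Lesion density is given as LPKM, the lesion positions per kb and per 1e+06 positions of the library (LPKM-SSB and LPKM-AP). Over all libraries of an assay, the alpha cluster held 500 SSB and 883 AP positions, the beta genes 374 and 702, and the gamma cluster 692 and 1273. Nearly all of them were distinct: 3, 1 and 5 SSB nucleotides of the alpha, beta and gamma clusters recurred in a second library, 15, 4 and 19 AP nucleotides recurred in at most 3 libraries, and no position carried a count above 2. The clusters are families of similar genes, and how reads that match several of them were placed is not given in the sources used here, so that positions could have been shared out between paralogs.

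The first question was whether the clusters carried more or fewer lesions than the remainder of the autosomes. The beta genes and the gamma cluster were denser in lesions than the autosomes in every library of both assays, whereas the alpha cluster was not. The autosomes, with the clusters included, had an LPKM-SSB of 0.409 ± 0.000802 and an LPKM-AP of 0.409 ± 0.000347 (SD, n = 12).

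For the beta genes, LPKM-SSB was 0.917 ± 0.210 (SD, n = 12), with a lowest library of 0.617, a median of 0.855 and a highest of 1.29. Their LPKM-AP was 1.05 ± 0.120, from 0.750 over 1.05 to 1.19. The mean over the 6 tissues was 2.19 times the autosomal level for SSBs (log2 ratio 1.13 ± 0.28 SD, n = 6 tissues) and 2.54 times for AP sites (1.35 ± 0.16). The gamma cluster had an LPKM-SSB of 0.689 ± 0.0832 (lowest 0.545, median 0.698, highest 0.858) and an LPKM-AP of 0.794 ± 0.0952 (0.570, 0.828 and 0.919). This was 1.67 times the autosomes for SSBs (0.74 ± 0.14) and 1.93 times for AP sites (0.95 ± 0.12). All 4 differences pointed upward in 6 of 6 tissues, with p = 0.03125 in a two-sided exact sign-flip test, the smallest that 6 tissues allow, and an adjusted p of 0.0469 over the 6 tests (Benjamini-Hochberg).

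The alpha cluster had an LPKM-SSB of 0.346 ± 0.0583 (lowest 0.250, median 0.347, highest 0.492), and 11 of 12 libraries lay below the autosomes. Its LPKM-AP was 0.382 ± 0.0426 (0.326, 0.378 and 0.469), with 9 of 12 libraries below. The ratio to the autosomes was 0.836 for SSBs and 0.930 for AP sites, and neither passed the exact sign-flip test (adjusted p = 0.075 and 0.0938, 5 of 6 tissues lower in each). Without the first brain library, the sample in which the alpha cluster was above the autosomes for SSBs, the adjusted p of the exact test for SSBs was 0.0375. The surroundings were denser than the autosomes as well: the 1 Mb before the alpha cluster had a mean LPKM-SSB of 0.535 and LPKM-AP of 0.496, and the 1 Mb after the gamma cluster 0.644 and 0.591. Against these flanks, the alpha cluster was lower in both assays (log2 ratio -0.78 for SSBs and -0.51 for AP sites, adjusted p = 0.0375, exact sign-flip test). The gamma cluster was higher by only 0.22 for SSBs (adjusted p = 0.0625, same test) and by 0.54 for AP sites (adjusted p = 0.0375). The beta genes were higher by 0.61 for SSBs and 0.94 for AP sites (adjusted p = 0.0375 for each, same test).

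**Figure D1:**
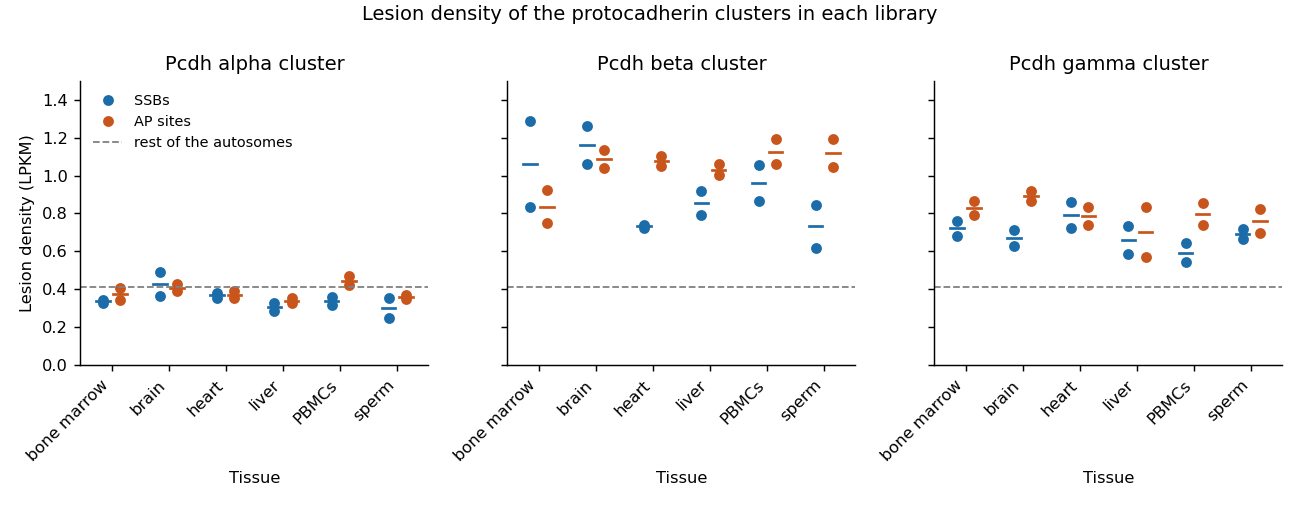
Lesion density (LPKM, vertical axis) of the merged genes of each cluster in each library, by tissue. Points are libraries, short bars are tissue means and the dashed line is the remainder of the autosomes; the beta and gamma points all lie above that line, and the alpha points lie around or under it.

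Within libraries, where depth cancels, the order of the clusters was beta, gamma, alpha. The alpha cluster had 0.381 times the density of the beta genes for SSBs and 0.366 times for AP sites, and 0.50 and 0.482 times the density of the gamma cluster. All 4 held in 6 of 6 tissues (exact sign-flip test, p = 0.03125, adjusted p = 0.0375 over 6 tests). The beta genes were 1.32 times as dense as the gamma cluster for AP sites (6 of 6 tissues, adjusted p = 0.0375, exact test), and this call was lost without the second bone marrow library (log2 ratio 0.36, adjusted p = 0.075). For SSBs the ratio was 1.31 in 5 of 6 tissues (adjusted p = 0.0938). The order of beta turned when the spaces between beta genes were included: over its whole interval the beta cluster was lower than the gamma cluster by a log2 ratio of -0.95 for SSBs and -0.997 for AP sites (adjusted p = 0.0469 for each, exact sign-flip test) and was at -0.21 and -0.05 against the autosomes, so the high density belonged to the genes and not to the interval.

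Compared with autosomal windows of 250 kb, the gamma cluster was also the one that stood high, although at 180.099 kb it is shorter than these windows. Scaled to 250 kb, it held 961 SSB positions, more than 92.2% of the 9603 autosomal windows of that size, and 1767 AP positions, more than 97.6% of them. The whole alpha interval lay above 41.2% (SSBs) and 46.7% (AP sites) of the windows, and the whole beta interval above 42.2% and 49.0%. These percentiles describe the sums over all libraries and carry no test.

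The positions were spread unevenly within the region. Lesions concentrated in the tandem arrays of genes and at the 3′ ends of the alpha and gamma clusters, and were sparser between them. In the alpha cluster, the array from Pcdha1 to Pcdha12 (92.445 kb) had an LPKM-SSB of 0.514 ± 0.134 and an LPKM-AP of 0.597 ± 0.0801 (SD, n = 12). The next 67.406 kb, up to Pcdhac1, had 0.104 ± 0.0674 and 0.0976 ± 0.0457. The 53.542 kb from Pcdhac1 to Pcdhac2 had 0.210 ± 0.0590 and 0.213 ± 0.0584. From Pcdhac2, the last alpha start, to the end of the cluster, where the shared constant exons lie, density was again 0.523 ± 0.178 and 0.568 ± 0.124. The sparse middle (the stretch of 67.406 kb) and the dense ends did not overlap in any library. For AP sites the highest value of the middle was 0.204 and the lowest value of the ends was 0.349. For SSBs these values were 0.198 and 0.238. The stretches were chosen after the density along the region was seen, so this contrast describes the profile and is not a test. GC content, and how much of each stretch reads can be placed in, could not be checked.

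The gamma cluster had a similar outline at a higher level, although for SSBs its middle was near the autosomal level. From Pcdhga1 to Pcdhga12 (106.305 kb) LPKM-SSB was 0.702 ± 0.142 and LPKM-AP 0.913 ± 0.133. In the 38.33 kb up to Pcdhgc3 they were 0.382 ± 0.158 (0.217 to 0.601 between libraries) and 0.235 ± 0.129. From Pcdhgc5 to the end, a stretch of 22.328 kb, they were 1.04 ± 0.400 and 1.04 ± 0.257. The spaces between clusters were below the autosomal level. Between alpha and beta (76.1 kb) LPKM-SSB was 0.146 ± 0.0930 and LPKM-AP 0.15 ± 0.0585. Between beta and gamma (140.355 kb) they were 0.141 ± 0.0615 and 0.206 ± 0.0393. Of the 91 bins of 10 kb across the region, 20.9% had fewer than 5 positions in both assays, compared with 5.33% of all autosomal bins. The counts of SSBs and AP sites per bin had a Pearson correlation of 0.922 over these 91 bins and of 0.884 over the 240303 autosomal bins, which describes the shared profile of both assays on the same DNA samples and is not a test.

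**Figure D2:**
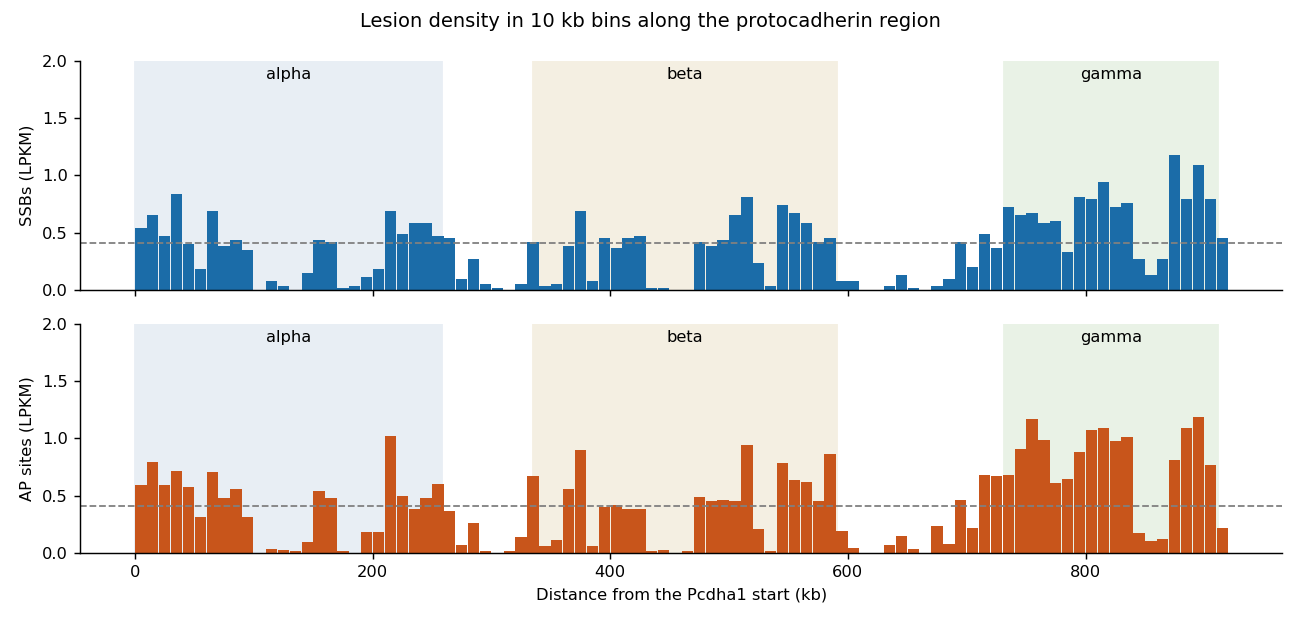
Pooled lesion density (LPKM) of SSBs (top) and AP sites (bottom) in 10 kb bins, against the distance from the Pcdha1 start in kb. Shaded areas are the clusters and the dashed line is the remainder of the autosomes; both assays show dense arrays separated by stretches with few positions, and the highest bins lie in the gamma cluster.

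Because each gene of a cluster begins with its large coding exon, density was compared between the 2500 bp after the gene starts and the remainder of the cluster. Lesions were concentrated at the starts in all clusters. In the alpha cluster, the starts had an LPKM-SSB of 0.989 ± 0.366 against 0.245 ± 0.0333 in the rest, and an LPKM-AP of 1.29 ± 0.328 against 0.240 ± 0.045 (SD, n = 12). This was a 3.83-fold difference for SSBs, from 2.198 to 5.75-fold between tissues, and a 5.25-fold difference for AP sites. In the gamma cluster, the starts had an LPKM-SSB of 1.07 ± 0.251 against 0.521 ± 0.0860 and an LPKM-AP of 1.59 ± 0.269 against 0.445 ± 0.0541, which were 2.01-fold and 3.54-fold differences. The beta genes were compared with the spaces between them, where LPKM-SSB was 0.131 ± 0.0508 and LPKM-AP 0.127 ± 0.0279. The genes exceeded these spaces 7.68-fold and 8.35-fold. For SSBs the second sperm library had a ratio of 31.1, from 13 positions in the genes and 1 between them. With any 1 library left out, the log2 ratio for SSBs was between 2.74 and 3.14. All 6 comparisons had the same direction in 6 of 6 tissues (exact sign-flip test, p = 0.03125 and adjusted p = 0.03125). Without the first PBMC library the gamma starts had a log2 ratio of 0.89 for SSBs and an adjusted p of 0.0625.

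The profile around the starts had the width of such an exon. For the 14 alpha genes, pooled LPKM-AP was 0.550 in the 500 bp before the start, lay between 1.10 and 1.89 in each of the 5 bins of 500 bp after it, and dropped to 0.389 in the bin from 2500 to 3000 bp. For the 22 gamma genes, LPKM-AP rose from 0.876 before the start to 1.68 after it, was still 1.43 between 2000 and 2500 bp, and was 0.628 in the next bin. For the 22 beta genes it was 0.505 before the start, up to 1.70 within the first 2500 bp, and 0.361 beyond. In the alpha genes LPKM-SSB was 0.569 before the start, between 0.647 and 1.40 within the first 2500 bp and 0.337 beyond. It was lower than LPKM-AP in most of these bins, but in the beta genes it was 1.33 against 0.824 between 2000 and 2500 bp. Density was therefore raised over the whole of this stretch and not only next to the promoter. The exons themselves are not in the annotation used here.

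**Figure D3:**
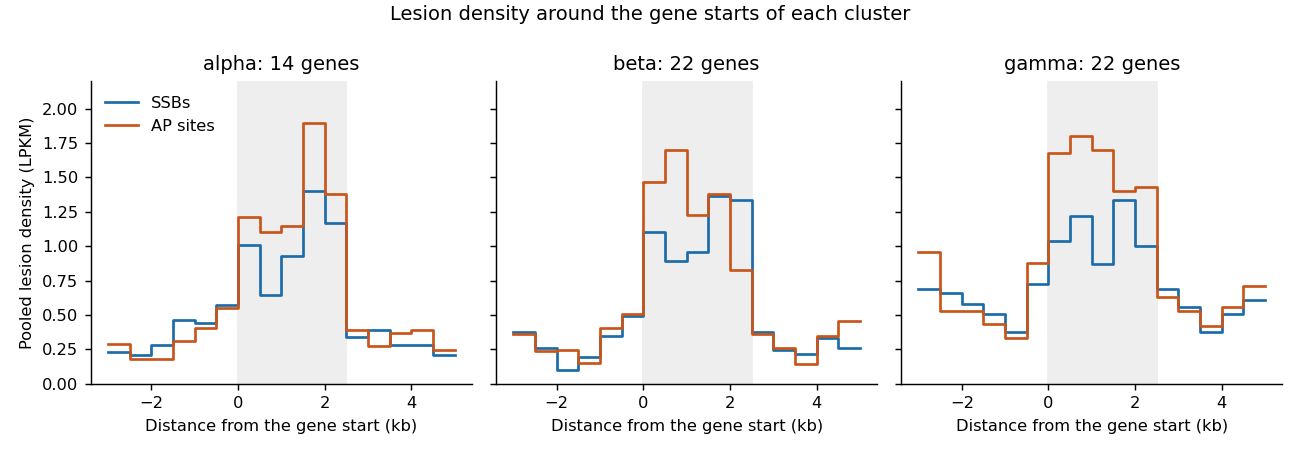
Pooled lesion density (LPKM) in 500 bp bins, against the distance in kb from the gene start, over all genes of a cluster and all libraries of an assay. The grey band marks the first 2.5 kb; in all clusters both assays step up at the start and step down at its far edge, and AP sites are higher than SSBs in most bins of the band.

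To see whether this concentration differed from that of genes in general, the same ratio was computed per library for 7164 protein-coding genes of 20 to 300 kb outside chromosome 18. Their first 2500 bp were 1.66 times as dense as the rest for SSBs (1.39 to 2.15 between libraries) and 1.28 times for AP sites (1.1998 to 1.38). The alpha starts exceeded this 2.31-fold for SSBs and 4.09-fold for AP sites, and the gamma starts 1.21-fold and 2.76-fold. The rest of the alpha cluster (LPKM-SSB 0.245, LPKM-AP 0.240) includes its sparse middle, so the alpha ratios have a denominator below the autosomal level. The densities of the starts themselves were not compared with those of the other genes. This comparison of ratios was added after seeing the data. For beta, 2204 autosomal protein-coding genes of 2340 to 5271 bp were compared with the 10 kb on either side of them. They were 1.57 (SSBs) and 1.53 times (AP sites) as dense, and the ratio of the beta genes exceeded this 4.89-fold and 5.45-fold. The 10 kb flanks were not cleared of other genes, whereas the spaces of the beta cluster exclude all beta genes, so this excess compares unlike denominators. All 6 differences were positive in 6 of 6 tissues (exact sign-flip test, p = 0.03125, adjusted p = 0.03125 over 6 tests). For SSBs in the gamma cluster the excess was small: in the second library of PBMCs and of sperm the starts were 0.975 and 1.001 times the rest, below the other genes of the same library, and the adjusted p of the exact test became 0.375 without either the first PBMC library or the first sperm library.

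The levels of the beta genes themselves lay within the range of other short genes. The genes of like length had a median LPKM-SSB of 0.967 and LPKM-AP of 0.857 over the pooled libraries, and the pooled beta genes, at 0.896 and 1.05, were denser than 44.4% and 71.2% of them. Of the 22 beta genes, 10 were above that median for SSBs and 20 for AP sites.

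**Figure D4:**
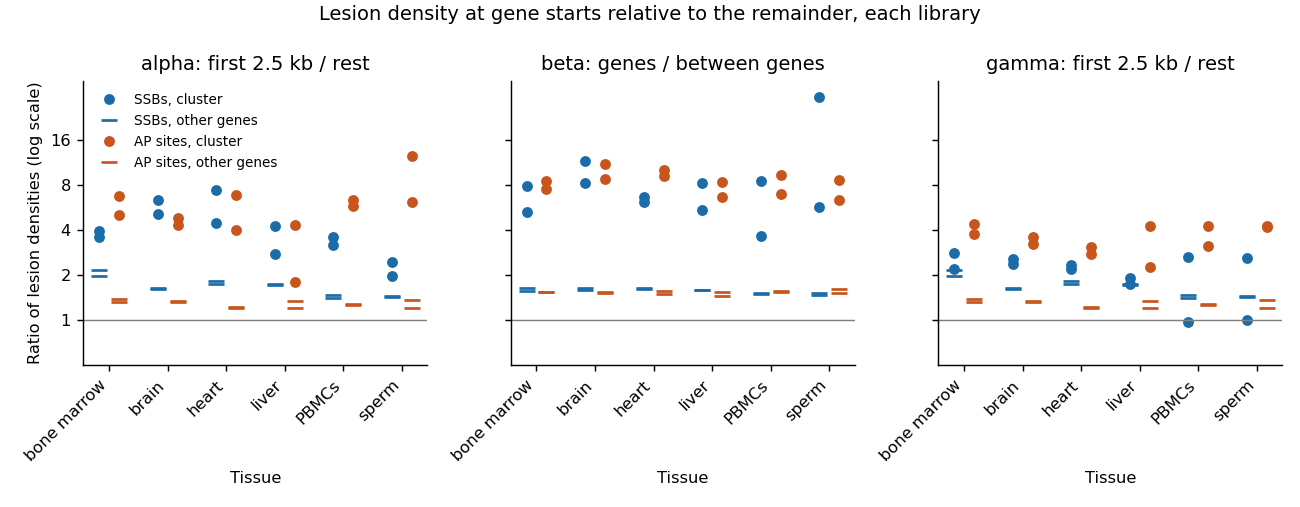
Ratio of lesion densities (log scale) in each library, by tissue: the first 2.5 kb of the genes over the rest for alpha and gamma, and the genes over the spaces between them for beta. Points are the cluster. Dashes are other protein-coding genes, with the same ratio for alpha and gamma, and the genes over their 10 kb flanks for beta. Nearly all points lie above the dashes, except SSBs of the gamma cluster in a library of PBMCs and of sperm. The highest beta point, SSBs of the second sperm library, rests on 1 position between the genes.

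Whether the starts were more prominent in AP sites than in SSBs was tested within samples. In the gamma cluster the log2 ratio of starts to rest was 1.82 for AP sites and 1.01 for SSBs, a difference of 0.81 ± 0.40 (SD, n = 6 tissues) in 6 of 6 tissues. The exact sign-flip test gave p = 0.03125, and an adjusted p of 0.0938 over the 3 clusters. In the alpha cluster the difference was 0.45 ± 0.91 and in the beta cluster 0.12 ± 0.52 (adjusted p = 0.422 and 0.594, exact test). Sperm of the alpha cluster contributed much of the spread: its starts were 12.6 and 6.18 times the rest for AP sites, with 57 of 86 and 29 of 59 positions at the starts, against 1.97 and 2.46 times for SSBs, with 8 of 34 and 5 of 18.

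The genes with the C-type first exons are expressed more evenly across neurons than the other alpha and gamma genes. Over their whole spans they were among the dense ones of their clusters. Their first 2500 bp went both ways for SSBs. Among the alpha starts Pcdhac2 was lowest (pooled LPKM 0.507). Among the gamma starts Pcdhgc3 was highest (1.67), and Pcdhgc4, at 0.797, was below the median of 1.01. Pcdhac2, the C-type gene closest to the alpha constant exons, had the highest pooled density of the 14 alpha genes, with an LPKM-SSB of 0.527 and an LPKM-AP of 0.569. Between libraries its LPKM-SSB ranged from 0.245 over a median of 0.553 to 0.867. Pcdhac1 was at 0.349 and 0.374, close to Pcdha1 (0.349 and 0.387), and the lowest was Pcdha12 (0.263 and 0.278), whose span holds the sparse middle of the cluster. Since the alpha genes are nested, these values differ mostly by how much of the array and of the sparse middle a span contains.

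The gamma genes are nested as well. Among them the C-type members Pcdhgc3, Pcdhgc4 and Pcdhgc5, whose spans lie largely in the dense 3′ end, were the densest over their whole spans. Their pooled LPKM-SSB was 1.02, 1.12 and 1.10, and their LPKM-AP 1.05, 1.15 and 1.04, whereas the other gamma genes lay between 0.677 and 0.741 for SSBs and between 0.646 and 0.809 for AP sites. Pcdhgc5, the shortest, ranged from an LPKM-SSB of 0.620 over a median of 0.900 to 2.11, with the highest tissue mean in heart (1.78) and the lowest in brain (0.763). Its LPKM-AP ranged from 0.640 over 1.05 to 1.38, with the highest mean in brain (1.22). The first 2500 bp of Pcdhgc5 had the highest AP density of all gamma starts, with 46 positions and a pooled LPKM of 2.09. The order of the C-type gamma genes cannot be told apart, because their spans overlap and their library ranges do too.

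All 58 genes had positions in both assays, and all 58 start windows were denser in the pooled libraries of either assay than the rest of their cluster (the spaces between genes for beta). In the alpha cluster, the start windows held 7 (Pcdhac2) to 25 (Pcdha5) SSB positions and 23 (Pcdha6) to 37 (Pcdha2 and Pcdha4) AP positions. In the gamma cluster they held 10 to 23 and 25 to 46. The start windows were denser in AP sites than in SSBs for 11 of 14 alpha, 14 of 22 beta and 19 of 22 gamma genes.

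The beta genes, which do not overlap, gave the most independent view of single genes, although each rested on few lesions: 9 to 26 SSB positions and 21 to 47 AP positions over 12 libraries. Pooled LPKM-SSB ranged from 0.532 in Pcdhb22 to 1.55 in Pcdhb12, and every beta gene was above the spaces between genes. Pcdhb12 had 26 SSB positions, 0 to 9 per library, of which 2 and 9 were in the brain libraries (LPKM-SSB 1.82 and 4.28). Its LPKM-AP in brain was 0 and 0.925, so brain was high in one assay and low in the other. Pcdhb22 had 9 SSB positions and was at 0 in 7 of 12 libraries, where a count of 0 allows up to 3 positions.

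For AP sites, Pcdhb1, the first gene of the cluster, was highest with an LPKM-AP of 1.94. It had 1 to 6 positions in every AP library, a lowest LPKM-AP of 0.655, a median of 2.13 and a highest of 2.79, while its LPKM-SSB ranged from 0 over 0.900 to 3.26. Pcdhb18 was lowest with an LPKM-AP of 0.697 (1 to 7 positions per library). The longest beta gene, Pcdhb16, had 18 SSB and 47 AP positions (pooled LPKM 0.619 and 1.01), and the shortest, Pcdhb8, had 15 and 26 (1.16 and 1.26). Single beta genes held 0 to 9 positions per library, and differences between them were not tested.

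**Figure D5:**
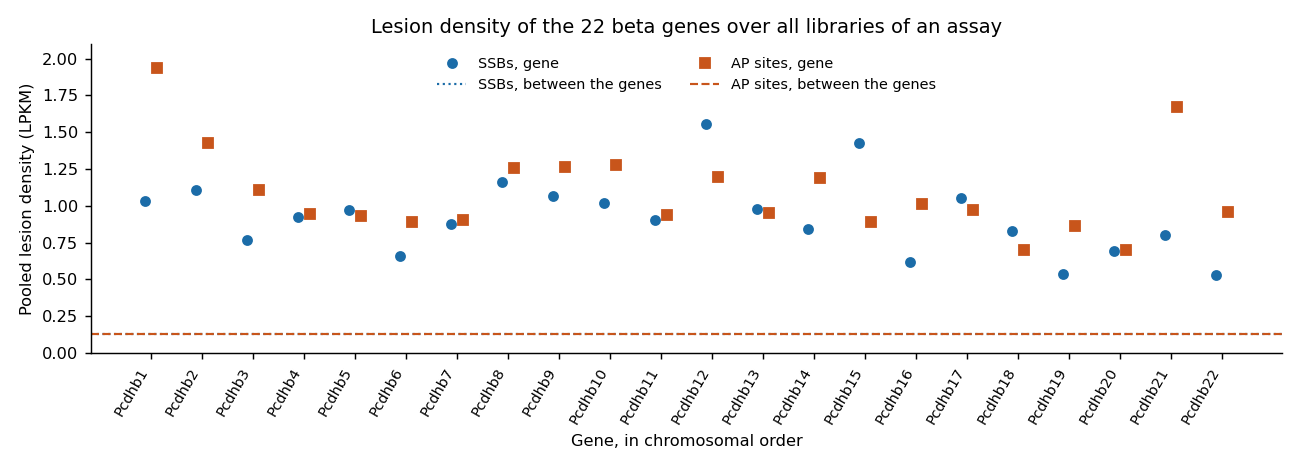
Pooled lesion density (LPKM, vertical axis) of each beta gene over the 12 libraries of an assay, in chromosomal order. Circles are SSBs, squares are AP sites, and the lines near 0.13 are the density between the genes; every gene lies above the lines, with Pcdhb12 highest for SSBs and Pcdhb1 highest for AP sites.

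The tissues were compared next, since these genes are best known from the nervous system. No cluster passed the test of a difference between tissues, in which the replicate number was not used. LPKM-SSB of the alpha cluster was 0.492 and 0.363 in the brain libraries, 0.355 and 0.379 in heart, 0.361 and 0.316 in PBMCs, 0.329 and 0.344 in bone marrow, 0.286 and 0.326 in liver, and 0.351 and 0.250 in sperm. Brain had the highest mean (0.428) and sperm the lowest (0.300), but the first sperm library lay close to the second brain library. For AP sites PBMCs were highest (0.421 and 0.469), followed by brain (0.388 and 0.429), and liver was lowest (0.326 and 0.353). The PBMC libraries did not overlap those of liver, heart (0.352 and 0.391), bone marrow (0.343 and 0.405) or sperm (0.345 and 0.367).

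LPKM-SSB of the beta genes was 1.06 and 1.26 in brain, 0.836 and 1.29 in bone marrow, 1.06 and 0.865 in PBMCs, 0.919 and 0.791 in liver, 0.740 and 0.723 in heart, and 0.846 and 0.617 in sperm. Both brain libraries were above both libraries of heart, liver and sperm, while the bone marrow libraries lay far apart. For AP sites the order was different, with bone marrow lowest (0.750 and 0.923) and PBMCs (1.19 and 1.06), sperm (1.04 and 1.19), brain (1.14 and 1.04), heart (1.11 and 1.05) and liver (1.06 and 1.004) next to each other. In the gamma cluster heart was highest for SSBs (0.858 and 0.725) and PBMCs lowest (0.642 and 0.545), and brain was highest for AP sites (0.919 and 0.865) with liver lowest (0.570 and 0.832).

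The highest tissue mean was 1.42 times the lowest for alpha, 1.59 times for beta and 1.33 times for gamma in SSBs, and 1.31, 1.35 and 1.27 times in AP sites. An exact permutation test of the F statistic over all pairings of the 12 libraries gave adjusted p values of 0.342, 0.342 and 0.353 for SSBs and 0.285, 0.285 and 0.535 for AP sites. The spread within tissues was set beside that from counting alone. For LPKM-SSB the within-tissue SD and the counting SD were 0.051 and 0.0578 in alpha, 0.171 and 0.175 in beta, and 0.0735 and 0.0977 in gamma. For LPKM-AP they were 0.0297 and 0.0456, 0.0843 and 0.140, and 0.0985 and 0.0788, so that only gamma AP sites spread more than counting alone would give.

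At the level of genes, edgeR's quasi-likelihood test over all genes called 0 of the 58 across tissues for SSBs, beside 0.125% of the 38486 genes tested. At an unadjusted p under 0.05 there were 9 of 58 (15.5%), beside 4.85% of all genes tested. Of these, 8 were overlapping gamma genes from Pcdhgb5 to Pcdhgc5, and the other was Pcdhb5. For AP sites edgeR called 0 of 58 at an adjusted p under 0.05 (0% of 41374 genes) and 0 at an unadjusted one (2.95% of all genes). DESeq2 also called 0 in both assays.

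Brain against the mean of the other tissues gave no call either. edgeR called 0 of 58 for SSBs (0% of all genes), with 3 at an unadjusted p under 0.05 (4.9% of all genes), and 0 of 58 for AP sites (0% of all genes), with 8 at an unadjusted p under 0.05 (4.31%). Of these 8, Pcdhb2, Pcdhb5 and Pcdhb17 were beta genes and the others were overlapping alpha and gamma genes. DESeq2 called 0 of the 58 here too. The median of all genes tested was itself shifted, by a log2 difference of 0.15 for SSBs and 0.10 for AP sites. The merged beta genes were 0.54 higher in brain for SSBs (adjusted p = 0.879, edgeR) and 0.11 for AP sites. The alpha cluster was 0.35 higher for SSBs (adjusted p = 0.939) and 0.16 for AP sites, and the gamma cluster 0.05 and 0.24. Relative to the median gene, gamma was thus lower for SSBs and higher for AP sites, with no call in either.

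Finally, AP sites and SSBs were compared within the same samples. At the level of clusters AP density was 1.11 times SSB density for alpha, 1.16 times for beta and 1.15 times for gamma, and none passed the exact sign-flip test (adjusted p = 0.141, 0.25 and 0.141, higher in 5, 4 and 5 of 6 tissues). The tissue means of bone marrow and brain went the other way in the beta genes. Bone marrow had 0.750 and 0.923 for AP sites against 0.836 and 1.29 for SSBs. In brain the second sample went this way (1.04 against 1.26) and the first did not (1.14 against 1.06).

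Across genes, edgeR with the sample as a block called 2 of the 58 genes, both higher in AP sites, beside 0.745% of 41210 genes tested and 0.59% that were higher in AP sites. They were Pcdhga2 (log2 difference 0.32, adjusted p = 0.0254) and Pcdhga3 (0.31, adjusted p = 0.0366), neighbouring genes near the beginning of the gamma array. Pcdhga2 had an LPKM-SSB of 0.548 in the lowest, 0.689 in the median and 0.816 in the highest library, and an LPKM-AP of 0.582, 0.835 and 0.927, with AP sites higher in 11 of 12 samples. Pcdhga3 had an LPKM-SSB of 0.546, 0.675 and 0.842 and an LPKM-AP of 0.564, 0.830 and 0.895, with AP sites higher in 10 of 12. The ranges overlapped between assays, and the exceptions included the first liver sample in both genes. The span of Pcdhga3 lies within that of Pcdhga2, so these calls rest on nearly the same positions. The merged gamma cluster had a log2 difference of 0.29 and an adjusted p of 0.0577 (edgeR). The number of members called ranged from 0 to 5 when a sample was left out, reaching 0 without the second bone marrow, the first brain, the second liver or either PBMC sample, 1 without the first bone marrow or the second brain sample, 4 without the second heart and 5 without the first liver sample. DESeq2 called 6. At an unadjusted p under 0.05 there were 22 of 58, beside 9.93% of all genes. Apart from Pcdhb1, Pcdhb16 and Pcdhb21, these were overlapping alpha and gamma genes that share positions, so they are not independent of each other. The median log2 difference of the 58 genes, which counts shared positions repeatedly, was 0.22, beside 0.08 over all genes tested.

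The plus strand held 48.6% of alpha, 47.4% of beta and 48.5% of gamma SSB positions and 52.0%, 52.8% and 51.1% of AP positions (means of 12 libraries), against 50.3% and 51.1% over chromosome 18. No cluster passed the test against an even share (adjusted p of at least 0.562, exact sign-flip test). Tissues went both ways: the plus share of alpha SSBs was 30.1% in sperm and 65.0% in bone marrow. The difference between these tissues was not tested, and the sperm libraries held 34 and 18 positions there.

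Other protocadherins and factors tied to the clusters were examined as lists. Among 12 non-clustered protocadherins, which are adhesion proteins encoded by separate genes, 1 differed between tissues for SSBs with edgeR (0.125% of all genes), and 3 had an unadjusted p under 0.05 (4.85% of all genes). The called gene was Pcdh9 (adjusted p = 0.0151), a gene of 879.135 kb, whose mean LPKM-SSB was lowest in bone marrow (0.249) and highest in sperm (0.369). None of the 12 differed between tissues for AP sites, in brain or between assays (0 calls by edgeR, with 3 at an unadjusted p under 0.05 for tissues in AP sites, 0 and 2 for brain in SSBs and AP sites, and 4 between assays, beside 2.95%, 4.9%, 4.31% and 9.93% of all genes). Their median log2 difference between AP sites and SSBs was -0.06, beside 0.08 over all genes. Their median mean LPKM was 0.414 for SSBs and 0.408 for AP sites, near the autosomal level and lower than the beta and gamma clusters. Their longest, Pcdh15 (1553.56 kb), had a mean LPKM-SSB of 0.295 and LPKM-AP of 0.310, and their shortest, Pcdh8 (4.541 kb), 0.978 and 0.678.

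Of 11 regulators of promoter choice in the clusters, among them Ctcf, the cohesin genes and the chromatin factors Smchd1, Dnmt3b and Setdb1, edgeR called 0 in any comparison. At an unadjusted p under 0.05 there were 0 and 1 across tissues for SSBs and AP sites, 2 and 0 in brain, and 0 between assays, beside 4.85%, 2.95%, 4.9%, 4.31% and 9.93% of all genes in the same order. Between assays their median log2 difference was -0.07, beside 0.08 over all genes. Their median mean LPKM was 0.308 for SSBs and 0.278 for AP sites. The longest, the cohesin subunit gene Stag1 (360.836 kb), had 0.228 and 0.209, and the shortest, the cohesin subunit gene Rad21 (30.935 kb), 0.602 and 0.624. The kinase genes Ptk2 and Ptk2b, whose products bind the cytoplasmic tails of clustered protocadherins, had mean LPKM-SSB of 0.405 and 0.684 and LPKM-AP of 0.469 and 0.682, with 0 calls and 1 gene each at an unadjusted p under 0.05 across tissues for SSBs and between assays (4.85% and 9.93% of all genes).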

How the data were processed

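SSBs were mapped with SSiNGLe and AP sites with SSiNGLe-AP by the authors, who deposited per library the nucleotides at which lesions were found, each with its strand and its raw count, not normalized. The aligner, filters and treatment of reads that match several places are not given in the sources used here; the processing notes name GRCm38, whose last gene on chromosome 18 ends at 90593724, near the highest listed position, 90600527.

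Each position was counted once in the RefSeq gene spans of GRCm38, on either strand. LPKM was 1e+09 times the positions in a span, over the product of its bp and the library's positions. It was not corrected for GC content or for how much of a span reads can be placed in. Exons were not in the annotation used. Members and gene lists were chosen with earlier results of these data known. The comparison of gene starts with other genes was added after seeing the data, as were the stretches within clusters. The 2 samples of a tissue were treated as replicates. Tissues were the units of the exact sign-flip tests (64 patterns), although the same mice supplied them. The p-values of those tests measure agreement between tissue means and not the spread between mice. Other p-values measure the spread between these samples. SSB and AP libraries were paired because the labels name the same sample for both. Across tissues, the replicate number was not used: over genes, same-numbered libraries did not deviate together (correlations from -0.0335 to 0.0221 for SSBs and -0.188 to 0.131 for AP sites). In the AP density of the alpha cluster, however, the second library was above the first in every tissue.

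Genes and merged clusters were fitted with edgeR 4.0.16 (quasi-likelihood F test, TMM, all positions as library size, a nonzero value in at least 20% of libraries, which all 58 members passed, Benjamini-Hochberg threshold 0.05), with DESeq2 1.42.0 as an alternative, in R 4.3.3. Other steps used Python 3.11.15 with pandas 2.3.3, numpy 2.4.6 and, for the figures, matplotlib 3.10.9. The exact sign-flip test, the F test over pairings, the Benjamini-Hochberg adjustment and the main edgeR fits were tested on simulated data. DESeq2 and the alternatives that added or dropped a replicate block were not. Named genes were the C-type genes, the longest and shortest genes of each cluster and list, the beta genes of highest and lowest pooled LPKM, and genes past the threshold; others were named after their values were seen. Alternatives were summed counts, positions found in a single library, whole intervals, other references, start windows of 1000 and 5000 bp, other filters, replicate blocks and leaving out each library.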

Additional observations from a re-analysis of the deposited data

How the results depend on the processing

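Values are log2 ratios unless named otherwise. With the whole interval in place of the gene spans, the density of beta against the autosomes reversed to -0.21 (SSBs) and -0.049 (AP sites), beta against gamma reversed to -0.95 and -0.997, and alpha against beta lost its call at -0.0496 and -0.0556, since the interval adds the spaces between beta genes. Gamma kept 0.74 and 0.95 there but not its call, because the p-values were adjusted beside weaker tests. With the 1 Mb flanks as reference, alpha gained calls at -0.78 and -0.51, and gamma lost its call for SSBs at 0.22; the cause was not tested. With summed counts, beta against gamma for AP sites was 0.39 and lost its call; the cause was not tested. With a replicate block, the F statistic of alpha between tissues for AP sites was 27.5 (exact adjusted p = 0.0333); without a replicate block, gamma in AP sites against SSBs gained its call at 0.21, and 4 members were called between assays. DESeq2 called 6. Apart from these and the merged gamma cluster between assays, the block changed no call.

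Leaving out a library, alpha against the autosomes for SSBs ranged from -0.30 to -0.22 (1 call gained), gamma starts for SSBs from 0.89 to 1.13 (1 call lost), gamma starts against other genes for SSBs from 0.15 to 0.40 (2 lost), beta against gamma for AP sites from 0.35 to 0.45 (1 lost), and the members called between assays from 0 to 5. Reversals among values without a call were in the strand share of alpha for SSBs (-3.29 to 0.43 percentage points) and gamma for AP sites (-0.0961 to 2.25), and in brain against the other tissues for beta in AP sites (-0.0174 to 0.16) and gamma in SSBs (-0.18 to 0.14). The gamma cluster between assays was called with DESeq2 (0.33), with every gene of at least 1 position (0.30), without the block (0.29) and without 3 of the 12 samples. Depth was a limit: beta genes held 0 to 9 positions per library, and with 6 tissues an exact sign-flip test does not go below 0.03125.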
